A study of Homo sapiens with 12 samples.

Results

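The keratin genes are 55 of the 23228 genes counted in these libraries, taken as every symbol made of KRT, a number and, in a few cases, a letter from A to C. They encode the intermediate filament proteins of epithelia. By the tissue in which each is known to be made they were sorted into 2 luminal keratins, 3 other simple epithelial keratins, 4 basal keratins, 17 suprabasal and stratified keratins, 9 root sheath keratins, 17 hair keratins and 3 that were not placed in a layer. At least 1 read was counted for 36 of the 55, and 19 were at 0 counts in every library. The 7 with enough counts to be tested were KRT8, KRT18, KRT19, KRT80, KRT10, KRT2 and KRT6C. Another 7 had 10 or more pooled counts in an arm (KRT1, KRT14, KRT15, KRT20, KRT36, KRT73 and KRT75), and the other 41 stayed under 10 in every arm.

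The cells were C4.2B, an established human line of castration-resistant prostate cancer, and polyA RNA was sequenced in 12 libraries, 3 (A, B and C) in each of 4 arms. The DMSO arm received vehicle throughout, and the GDC arm received vehicle for 6 days and then 0.5 µM GDC-0941, a pan-PI3K inhibitor, for 24 h. The GSK arm received 5 µM GSK126, an inhibitor of the histone methyltransferase EZH2, for 6 days and for the final 24 h, and the COMBO arm received that same GSK126 schedule with 0.5 µM GDC-0941 in the final 24 h. For the last 24 h every arm was in medium with 10% charcoal-stripped serum, which is low in androgen, so the DMSO arm is an androgen-poor control. By the study's methods 3 plates per arm were seeded the day before the final dosing, after the 6-day pretreatment, and the labels do not tie the letters to plates or to separate pretreated cultures. The p-values measure the spread between these libraries, which may be technical.

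Keratins are obligate pairs: a type I (acidic) and a type II (basic) chain join into a heterodimer, and an unpaired chain is usually degraded. Secretory cells of the prostate gland carry KRT8 with KRT18, whereas the basal cells beneath them are marked by KRT5 with KRT14, and KRT15. Differentiating epidermis switches to KRT1, KRT2 and KRT10, and the hair follicle uses its own set in the shaft and in the sheaths around it. EZH2 works within the PRC2 complex and writes H3K27me3, a histone mark found over genes that a cell type does not use.

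The genes lie in 2 arrays (GENCODE 44, GRCh38). The 26 type II genes span chromosome 12 from 52168996 to 52949954, and 18 of them had a count. KRT18 is the only type I gene there, at 52948871 to 52952906 on the plus strand. It borders KRT8, on the minus strand at 52897187 to 52949954, and the longest KRT8 annotation overlaps it by 1084 bases. The other 28 type I genes span chromosome 17 from 40654665 to 41624842, and 17 of them had a count.

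RefSeq promoter entries (GRCh38.p14) matched 34 of the 55 keratins, and 32 of these began transcription at the first base of the canonical GENCODE transcript. The 250 bases upstream of the start were read. CG dinucleotides, the sites that DNA methylation acts on, numbered 0 to 7 in the keratin windows, and all 34 windows held fewer than the median of 11 over 35114 promoters. The letters TATAAA, searched on both strands, were present in 20 of the 34 keratin windows and in 10.7% of all promoters. GGGCGG was present in 4 of 34 and in 42.6% of all promoters, and TGANTCA in 0 of 34 and in 6.57%. Windows are shown for the 4 keratins matched at the canonical start that had 10 or more pooled counts in an arm and were higher under GSK126. These are KRT2 (chr12:52652212-52652461), KRT20 (chr17:40885243-40885492), KRT36 (chr17:41489911-41490160) and KRT75 (chr12:52434372-52434621). Beside them is KRT10 (chr17:40822615-40822864), an abundant keratin that did not pass the test under GSK126. All 5 are on the minus strand and are written 5′ to 3′ in the direction of transcription, with CG dinucleotides in capitals.
KRT2: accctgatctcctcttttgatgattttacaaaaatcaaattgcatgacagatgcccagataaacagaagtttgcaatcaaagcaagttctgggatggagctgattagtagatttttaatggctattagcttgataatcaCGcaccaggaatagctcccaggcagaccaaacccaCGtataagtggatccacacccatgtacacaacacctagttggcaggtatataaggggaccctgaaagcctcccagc
KRT20: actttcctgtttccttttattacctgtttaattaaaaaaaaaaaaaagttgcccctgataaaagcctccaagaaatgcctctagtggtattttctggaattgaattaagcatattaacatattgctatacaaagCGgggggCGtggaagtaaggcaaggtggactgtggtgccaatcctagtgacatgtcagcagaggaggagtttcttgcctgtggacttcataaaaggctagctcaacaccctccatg
KRT36: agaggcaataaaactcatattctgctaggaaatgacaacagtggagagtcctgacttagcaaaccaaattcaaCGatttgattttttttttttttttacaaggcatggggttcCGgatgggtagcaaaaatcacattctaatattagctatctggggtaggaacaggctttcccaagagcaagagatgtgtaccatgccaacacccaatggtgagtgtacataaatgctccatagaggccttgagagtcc
KRT75: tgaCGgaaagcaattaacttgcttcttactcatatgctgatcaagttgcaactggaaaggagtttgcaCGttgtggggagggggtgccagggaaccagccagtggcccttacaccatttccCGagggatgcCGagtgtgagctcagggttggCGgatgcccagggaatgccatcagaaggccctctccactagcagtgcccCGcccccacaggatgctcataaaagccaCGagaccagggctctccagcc
KRT10: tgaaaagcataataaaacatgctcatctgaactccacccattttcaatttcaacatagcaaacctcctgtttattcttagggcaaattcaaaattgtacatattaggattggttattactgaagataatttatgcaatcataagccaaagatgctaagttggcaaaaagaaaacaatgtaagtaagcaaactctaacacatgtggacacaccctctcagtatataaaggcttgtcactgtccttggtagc
KRT2, KRT20 and KRT36 each held 2 CG dinucleotides, KRT75 held 7 and also 1 GGGCGG, and KRT10 held none and 1 TATAAA. None of the first 4 held TATAAA. There was no entry for KRT18, KRT19, KRT80, KRT6C, KRT1 or KRT15, and the KRT8 entry belongs to a start 21393 bases from the canonical one, so those promoters are not shown.

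Levels are counts scaled to library size (CPM), with library sizes adjusted by TMM. A gene was called changed when the Benjamini-Hochberg adjusted p of edgeR's quasi-likelihood test was under 0.05 in a fit of 14189 genes and all 12 libraries. The libraries held 8785218 to 44437751 reads in genes, and the deepest was DMSO C. Pooled over an arm, a count of 0 allows up to 3 counts, or 0.0434 CPM for DMSO, 0.0707 for GDC, 0.0894 for GSK and 0.0561 for COMBO. These floors and the intervals on counts cover counting error only. Where a level is given as a multiple of a floor, counting error in that level is left out, so the multiple is not a lower limit.

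**Figure D1:**
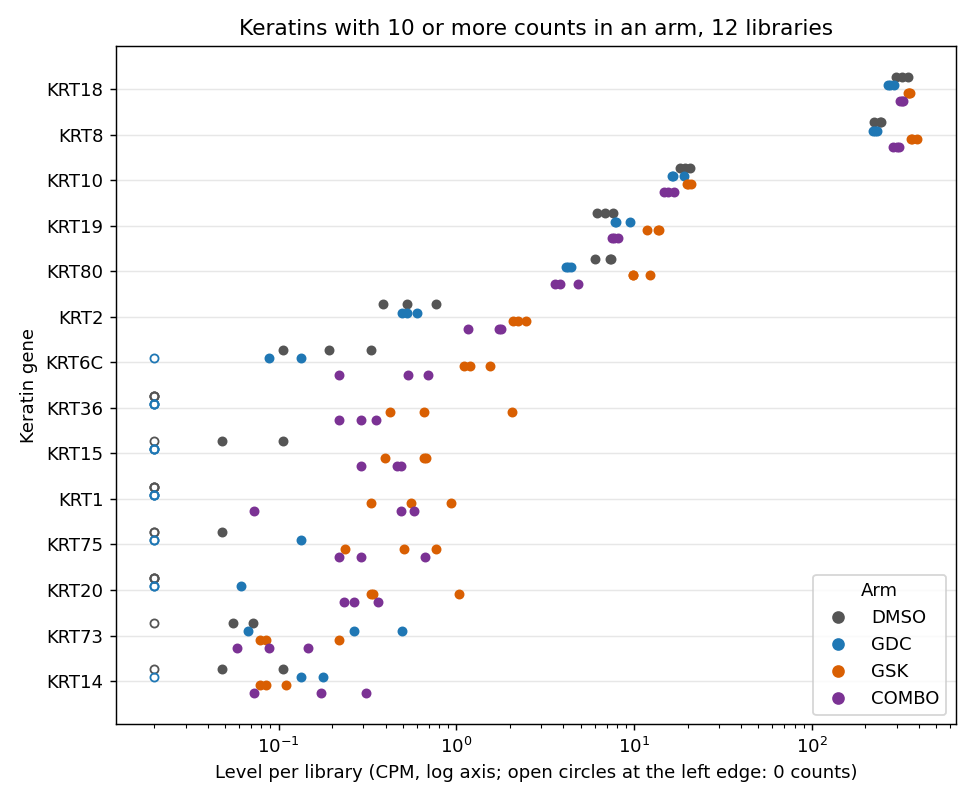
Level in each library (CPM, log axis) of the 14 keratins with 10 or more pooled counts in an arm, coloured by arm, with libraries at 0 counts drawn as open circles at the left edge. KRT8 and KRT18 sit far to the right of the others in every library, and KRT36, KRT1 and KRT20 have no count in any DMSO library.

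The keratin RNA of these cells was almost wholly luminal. KRT8 and KRT18 made up 93.3% to 95.2% of keratin counts in the 12 libraries. Summed over all 55 genes, keratins reached 592.8 ± 37.5 CPM under DMSO, 535.5 ± 13.8 under GDC, 776.8 ± 23.2 under GSK and 651 ± 17.6 under COMBO (SD, n = 3). The summed level in every GSK library was above that in every other library.

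More keratin genes had a count in the arms with GSK126. Of the 55, each DMSO library had a count for 10 to 14, each GDC library for 10 to 15, each GSK library for 18 to 22 and each COMBO library for 20 to 27. Pooled over an arm the numbers were 17, 18, 27 and 31. The DMSO arm had the most reads, 74032224 against 32319763 in GSK, so DMSO had the fewest keratins with a count and the most reads. The number of all genes with a count in each arm is not set beside these numbers. Whether the rise is particular to keratins was not tested.

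KRT8, the type II luminal keratin, was at 223, 242 and 244.3 CPM in the DMSO libraries (A, B and C), 226.5, 232.1 and 222 under GDC, 392, 368.1 and 362.5 under GSK, and 287.1, 309.4 and 300.3 under COMBO. All GSK and COMBO libraries were above all DMSO and GDC libraries, and GSK was above COMBO without overlap. KRT8 rose 1.58-fold in GSK (log2 fold change 0.66, SE 0.0471, edgeR adjusted p = 1.2e-10) and 1.26-fold in COMBO (log2 0.34, SE 0.0468, adjusted p = 1.53e-06). In GDC its log2 fold change was -0.06 (95% interval -0.16 to 0.04, adjusted p = 0.311). Without the library DMSO A this value was -0.14 and passed the test (adjusted p = 0.0254). COMBO was below GSK by 0.32 on the log2 scale (adjusted p = 1.18e-05).

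KRT18, its type I partner, was at 297.1, 347.2 and 322.1 CPM under DMSO, 288.6, 276 and 267.6 under GDC, 357.1, 349.7 and 345.3 under GSK, and 313.6, 325.5 and 319.9 under COMBO. GDC lay below every other arm, and the DMSO libraries spread widely enough to overlap both GSK and COMBO. KRT18 fell in GDC (log2 fold change -0.22, SE 0.0495, edgeR adjusted p = 0.00154). In GSK it passed the test by a small margin (log2 0.12, SE 0.0495, adjusted p = 0.0337), and that call was lost in 13 of 19 alternatives, among them DESeq2, the fit without DMSO A (log2 0.02) and the other fits without a library except DMSO B, GSK C or COMBO B. In COMBO its log2 fold change was -0.01 (95% interval -0.12 to 0.09, adjusted p = 0.81). Scaled by library totals alone, KRT18 was instead higher in COMBO (log2 0.19, adjusted p = 0.00108), a scaling under which the median of all genes moved by 0.207.

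The ratio of KRT8 to KRT18 counts does not depend on the scaling. It was 0.751, 0.697 and 0.759 in the DMSO libraries, 0.785, 0.841 and 0.829 under GDC, 1.098, 1.053 and 1.05 under GSK, and 0.915, 0.951 and 0.939 under COMBO. The arms did not overlap in any of the 5 comparisons made, and their means were 0.735, 0.818, 1.067 and 0.935. The log2 ratio was higher by 0.54 in GSK than in DMSO (SE 0.0437), by 0.35 in COMBO (SE 0.0416) and by 0.15 in GDC (SE 0.0489). Each exact two-sided permutation test gave p = 0.1, which is the smallest that 3 libraries against 3 can give (0.1 after adjustment over 5 comparisons). Over all keratins, type II counts per type I count were 0.702 for DMSO, 0.766 for GDC, 1.008 for GSK and 0.888 for COMBO. KRT8 and KRT18 supplied 93.3% to 95.2% of those counts. The order therefore largely repeats that of the pair and says nothing of the other keratins.

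Per kilobase of the canonical transcript, KRT18 was the more abundant of the pair in each arm, at 228 CPM per kb against 133 for KRT8 in DMSO and 248 against 210 in GSK. These levels have a limit in the sequence itself. Of the 50-base windows along the KRT8 transcript 39.2% also occur in the transcripts of other genes, most often KRT8P3, and for KRT18 35.3% do, most often KRT18P11. The annotation names 51 pseudogenes of KRT8 and 68 of KRT18. Between 8.05% and 9.03% of reads per library were set aside as not unique, and how many of these belong to the pair is unknown.

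**Figure D2:**
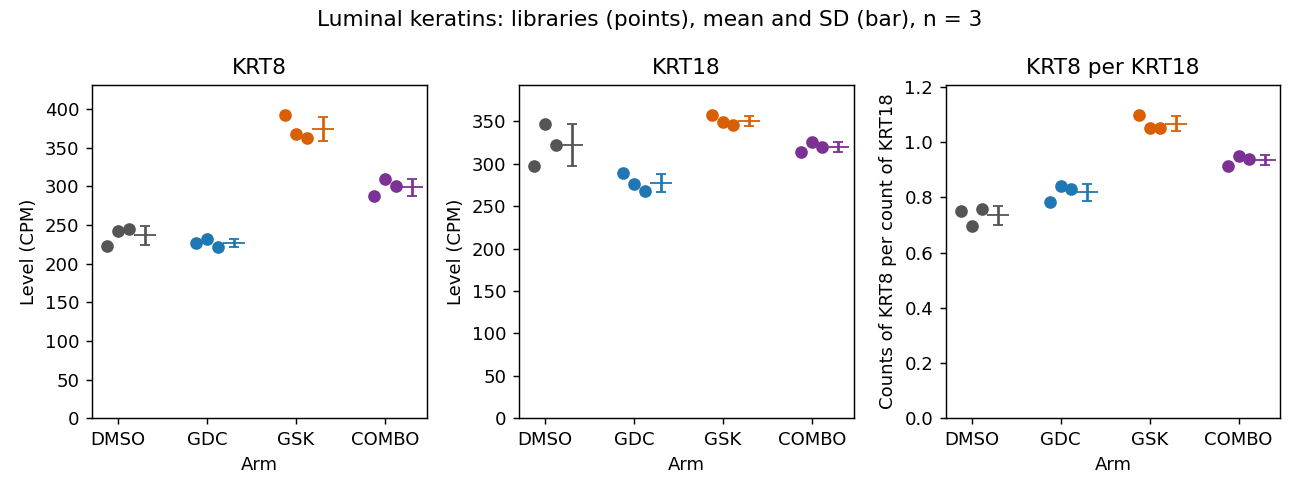
Level of KRT8 and of KRT18 (CPM, axes from 0) and the number of KRT8 counts per KRT18 count in each of the 12 libraries (points), with the mean and SD of each arm (n = 3). KRT8 climbs in GSK and COMBO while KRT18 stays within 267.6 to 357.1 CPM, so the ratio moves from 0.735 in DMSO to 1.067 in GSK.

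KRT19, the smallest type I keratin of simple epithelia, was at 6.84, 7.58 and 6.16 CPM under DMSO, 7.87, 9.43 and 7.85 under GDC, 13.9, 11.8 and 13.6 under GSK, and 7.55, 7.68 and 8.16 under COMBO. GSK stood above all other libraries, and COMBO was within the range of DMSO and GDC. The gene rose 1.93-fold in GSK (log2 0.95, SE 0.116, edgeR adjusted p = 3.54e-07), while in COMBO the log2 fold change was 0.20 (95% interval -0.04 to 0.45, adjusted p = 0.11). In the fit without DMSO B the COMBO value was 0.28 and passed (adjusted p = 0.0476), as did 0.41 with library totals (adjusted p = 0.003). COMBO was below GSK by 0.74 on the log2 scale (adjusted p = 2.66e-05). The interaction term, which is COMBO minus GDC minus GSK plus DMSO on the log2 scale, was -1.06 (SE 0.166, adjusted p = 0.000103) and passed in all 18 alternatives that gave a value. The small rise in GDC (log2 0.32, adjusted p = 0.0374) was lost in 14 of 19 alternatives, including DESeq2 (adjusted p = 0.144) and all fits that left out a library other than DMSO B, GSK C or COMBO B.

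KRT80, a type II keratin found in many epithelia and not tied to a layer here, moved in opposite directions under the single agents. It was at 6, 7.35 and 7.41 CPM under DMSO, 4.24, 4.13 and 4.43 under GDC, 12.3, 9.88 and 9.83 under GSK, and 3.83, 4.84 and 3.57 under COMBO. The DMSO libraries lay between the other arms with no overlap. KRT80 fell in GDC (log2 -0.73, SE 0.144, edgeR adjusted p = 0.000434), rose in GSK (log2 0.58, SE 0.129, adjusted p = 0.000456) and fell in COMBO (log2 -0.77, SE 0.138, adjusted p = 3.41e-05). COMBO differed from GDC by -0.04 (95% interval -0.37 to 0.29, adjusted p = 0.836) and from GSK by -1.35 (SE 0.141, adjusted p = 1.91e-07). The interaction was -0.61 (adjusted p = 0.0375). This last call was lost in 14 of 18 alternatives, for example without GSK A (-0.44, adjusted p = 0.157).

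KRT20, a type I keratin of intestinal and urothelial surface cells, had 0 counts in all DMSO libraries and 1 in GDC. GSK held 3, 13 and 4 counts, and COMBO 4, 6 and 5. Every GSK and COMBO library therefore had more counts than any DMSO or GDC library. The observed pooled level was 13.7 times the DMSO floor in GSK and 6.46 times in COMBO. The GSK multiple was 7.72 without GSK B. It was 5.48 without DMSO C, the deepest library, and the COMBO multiple was then 2.58. KRT7, a simple epithelial keratin of ducts, had 4, 1, 3 and 5 pooled counts in DMSO, GDC, GSK and COMBO.

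KRT5, the defining keratin of prostate basal cells, was at or near 0 in all arms, with pooled counts of 1 for DMSO, 0 for GDC, 0 for GSK and 2 for COMBO. KRT17 had 1 count in the series, in DMSO. TP63, the transcription factor that maintains basal cells, had 1 pooled count under DMSO, 4 under GSK and 0 under GDC and COMBO. Summed over 4 basal keratins the pooled counts were 8, 4, 22 and 36, and KRT15 supplied most of those in GSK and COMBO.

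KRT15, a type I keratin of basal and stem-like cells, had 1, 0 and 2 counts in DMSO and 0 in each GDC library. It had 6, 5 and 8 in GSK and 8, 11 and 4 in COMBO, with no overlap with the first 2 arms. Its pooled level in GSK was 13.1 times that in DMSO (exact 95% interval 3.84 to 68.9), and in COMBO 9.91 times (2.99 to 51.6). In an edgeR fit with no filter on low counts, KRT15 passed with adjusted p-values of 5.59e-05 for GSK and 0.000223 for COMBO. KRT14, the usual partner of KRT5, had pooled counts of 3, 4, 3 and 11, of which 7 of the last 11 were in COMBO B. Its COMBO ratio to DMSO was 4.74 (1.25 to 26.5), or 2.98 without COMBO B, and the fit with no filter did not call it (adjusted p = 0.0594). KRT14 shares 24.2% of its 50-base windows with other genes, KRT16 first among them.

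Among suprabasal keratins the abundant one was KRT10, the type I chain of differentiating epidermis. It was at 18, 20.6 and 19.4 CPM under DMSO, 16.6, 19.0 and 16.4 under GDC, 20.1, 20.8 and 19.8 under GSK, and 16.7, 15.4 and 14.8 under COMBO. COMBO lay below every DMSO and GSK library. KRT10 fell in COMBO (log2 -0.31, SE 0.0805, edgeR adjusted p = 0.00134), although with library totals the value was -0.11 and did not pass (adjusted p = 0.229). In GSK its log2 fold change was 0.05 (95% interval -0.12 to 0.23), or 0.21 and past the threshold with library totals (adjusted p = 0.0316). It was -0.16 in GDC (adjusted p = 0.122), which passed without DMSO A (adjusted p = 0.0344) and without GDC B (adjusted p = 0.0198). Per kilobase of transcript KRT10 was at 9.43 CPM per kb in GSK, against 0.247 for KRT1, its type II partner.

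KRT1 had 0 counts in every DMSO and GDC library. In GSK it had 3, 7 and 11, and in COMBO 10, 11 and 1. All 6 libraries with GSK126 thus held at least 1 count, although COMBO C held a single read. Its observed pooled level was 14.4 times the DMSO floor in GSK and 9.48 times in COMBO, or 5.76 and 3.78 without DMSO C. No 50-base window of KRT1 occurs in another gene.

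KRT2, a type II keratin of the upper epidermis, was at 0.526, 0.387 and 0.77 CPM under DMSO, 0.53, 0.493 and 0.604 under GDC, 2.09, 2.21 and 2.46 under GSK, and 1.16, 1.78 and 1.75 under COMBO. The libraries with GSK126 were all above those without it. KRT2 rose 3.59-fold in GSK (log2 1.85, SE 0.278, edgeR adjusted p = 5.54e-06) and 2.49-fold in COMBO (log2 1.32, SE 0.273, adjusted p = 0.000179). It reached the filter on low counts (0.705 CPM) in 1 DMSO, 0 GDC, 3 GSK and 3 COMBO libraries, so it was tested because of its level under GSK126. The gene also lacks 50-base windows in common with other genes.

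KRT6C belongs to the KRT6 trio of stressed and wounded epithelium. It had 1, 6 and 8 counts under DMSO, 1, 0 and 2 under GDC, 14, 14 and 14 under GSK, and 12, 12 and 3 under COMBO. Its levels in GSK, 1.11 to 1.54 CPM, were above all others, while COMBO C, at 0.219 CPM, lay within the DMSO range of 0.105 to 0.332. It rose in GSK (log2 2.49, SE 0.44, edgeR adjusted p = 3.88e-05) and, with a call lost in 7 of 17 alternatives, in COMBO (log2 1.18, SE 0.488, adjusted p = 0.0315). It reached the filter of 0.705 CPM in 0 DMSO, 0 GDC, 3 GSK and 1 COMBO libraries, so it too was tested only because of its level under GSK126. DESeq2 gave the COMBO change an adjusted p of 0.0902. The COMBO call was also lost without DMSO A, DMSO C, COMBO A or COMBO B, with values of 0.89 to 1.12. KRT6C is uncertain in identity: 53.1% of its windows occur in other genes, 44.2% in KRT6B alone. KRT6A had pooled counts of 0, 0, 3 and 1, and KRT6B of 0, 0, 4 and 0. KRT16, the type I partner of the KRT6 trio, had pooled counts of 0, 0, 4 and 6, and all 4 in GSK were in GSK A.

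Root sheath keratins form the sleeve between the hair and the skin, and KRT75 marks its companion layer. KRT75 had 0, 0 and 2 counts in DMSO, as in GDC. It had 7, 3 and 6 under GSK and 5, 15 and 3 under COMBO. All libraries with GSK126 held at least 3 counts. The ratio to DMSO was 16.5 in GSK (3.88 to 148) and 14.9 in COMBO (3.67 to 130). The COMBO ratio was 8.93 without COMBO B. Both DMSO counts were in DMSO C. Without it the levels were 4.39 times the DMSO floor in GSK and 3.95 times in COMBO. KRT73, a keratin of the inner sheath, had more counts in GDC than in any other arm, with 3, 8 and 1 counts there against 0, 1 and 3 in DMSO, 2, 1 and 1 in GSK and 1, 2 and 2 in COMBO. The GDC ratio of 4.89 (1.48 to 20.8) was not called in the fit with no filter (adjusted p = 0.0597), and 8 of the 12 counts were in GDC B. Without GDC B the ratio was 2.64, and without DMSO C it was 7.8. KRT73 overlaps an antisense gene, KRT73-AS1, from which its reads cannot be told apart here because the strand setting of the counts is unknown. The same limit applies to KRT75, KRT80 and KRT10, which overlap the antisense genes ENSG00000257500, LINC00592 and KRT10-AS1. KRT8 and KRT18 overlap each other on opposite strands. The other root sheath members had at most 3 pooled counts in an arm.

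Hair keratins build the hard shaft. Together the 17 genes had 1 pooled count under DMSO, 0 under GDC, 45 under GSK and 24 under COMBO, and KRT36, a type I hair keratin, accounted for most of them. KRT36 had 0 counts in all 6 libraries without GSK126, 6, 26 and 5 in GSK, and 5, 8 and 3 in COMBO. Its observed pooled level was 25.4 times the DMSO floor in GSK and 6.89 times in COMBO. GSK B alone held 26 of the 37 GSK counts, and without it the GSK multiple was 12.1. Without DMSO C the multiples were 10.1 and 2.75. COMBO was at 0.271 of the GSK level (0.141 to 0.5, no-filter adjusted p = 0.00172), and at 0.568 without GSK B. KRT32, next in this class, had pooled counts of 0, 0, 4 and 1, and KRT37 of 1, 0, 1 and 4. KRT83, KRT86, KRT31 and KRT85 each had at most 2 in an arm. The other 10 hair keratins were at 0 throughout.

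**Figure D3:**
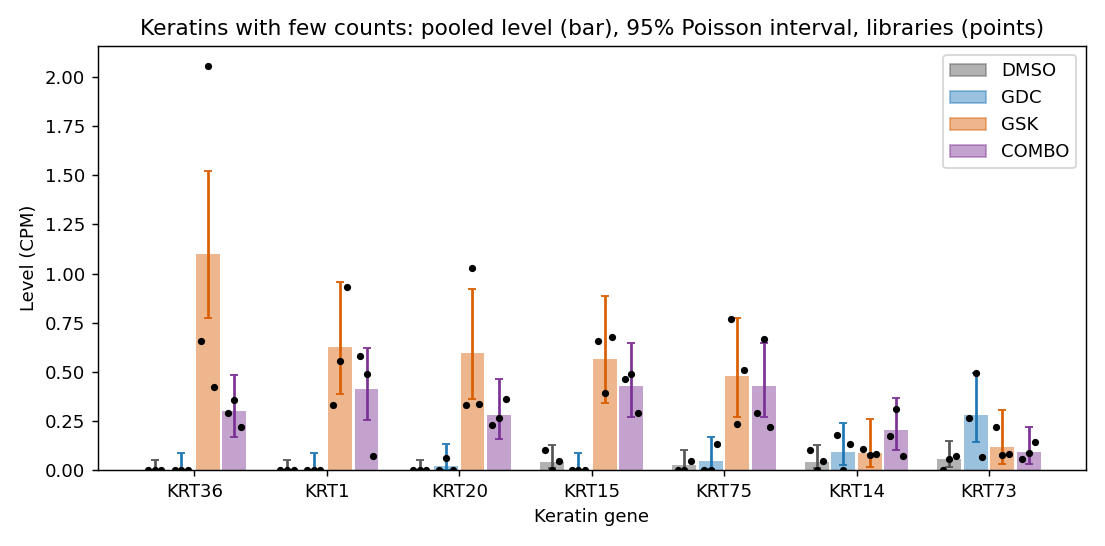
Pooled level of the 7 untested keratins with 10 or more counts in an arm (bars, CPM from 0) with the 95% Poisson interval of the pooled count, and the level in each library (points). KRT36, KRT1, KRT20, KRT15 and KRT75 stand higher in GSK and COMBO, with KRT36 in GSK resting largely on GSK B, whereas KRT73 is highest in GDC.

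The 19 keratins at 0 in all 12 libraries were KRT3, KRT24, KRT77 and KRT78 of stratified epithelia, KRT25, KRT26, KRT27, KRT71 and KRT74 of the root sheath, and KRT33A, KRT33B, KRT34, KRT35, KRT38, KRT39, KRT40, KRT81, KRT82 and KRT84 of hair. A level of uniquely counted reads under 0.0434 CPM in DMSO or 0.0894 in GSK was not detectable at this depth. The floors do not bound reads that were set aside as not unique, which could matter most for KRT81, KRT33A, KRT33B and KRT34, where 44.6%, 27.2%, 27.5% and 12.2% of the 50-base windows occur in other genes. Those with counts but under 10 in every arm and not named above were KRT4, KRT9, KRT12, KRT13, KRT76 and KRT79 of stratified epithelia, KRT28 and KRT72 of the root sheath, and KRT23 and KRT222. The highest of these was KRT12, with 1, 3, 2 and 8 pooled counts.

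Across the 7 tested keratins, 6 were higher and 0 lower in GSK against DMSO, where 75.7% of all tested genes changed (40.0% higher, 35.7% lower). The median log2 fold change of the 7 was 0.66, against 0.06 over all genes. KRT2 and KRT6C passed the filter through the arms with GSK126, so these counts are descriptions and give no support. In GDC against DMSO, 1 was higher and 2 lower, beside 40.1% of all genes changed (20.0% higher, 20.0% lower), with medians of -0.20 and 0.02. In COMBO against DMSO, 3 were higher and 2 lower, beside 82.5% (43.3% higher, 39.2% lower), with medians of 0.21 and 0.05. These 3 comparisons share the DMSO libraries.

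Adding GSK126 to GDC-0941 (COMBO against GDC) left 4 of the 7 higher and 0 lower, beside 76.0% of all genes changed (37.9% higher, 38.0% lower). The 4 were KRT8 (log2 0.40), KRT18 (0.21), KRT2 (1.52) and KRT6C (2.71), of which KRT2 and KRT6C reached the filter in 0 GDC libraries. Adding GDC-0941 to GSK126 (COMBO against GSK) left 6 lower and 0 higher, beside 45.9% changed (19.0% higher, 26.9% lower). KRT2 was the exception, at -0.53 (adjusted p = 0.0848), and KRT18 passed narrowly (-0.13, adjusted p = 0.0333), a call lost in 13 of 19 alternatives, including all fits without a library other than DMSO A, GSK C or COMBO B. KRT6C lost its call without GSK A (-1.15, adjusted p = 0.0502). The interaction passed the test for 3 of the 7, KRT8, KRT19 and KRT80, and was below 0 for each, beside 21.4% of all genes called (4.86% above 0, 16.5% below). The KRT8 call was lost in 8 of 18 alternatives. The interaction of KRT18 passed only without DMSO A (0.21, adjusted p = 0.0309).

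When a log2 fold change of 1 or more in size was asked for as well, the keratins called were 0 in GDC (beside 1.87% of all tested genes), 2 in GSK (21.9%) and 2 in COMBO (31.1%) against DMSO. They were 2 in COMBO against GDC (21.8%), 2 in COMBO against GSK (2.97%) and 1 for the interaction (1.33%). In GSK and COMBO against DMSO and in COMBO against GDC the 2 were KRT2 and KRT6C. Both passed the filter through the arms with GSK126, so those counts give no support. In COMBO against GSK the 2 were KRT80 and KRT6C, the latter with the same limit, and for the interaction it was KRT19.

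**Figure D4:**
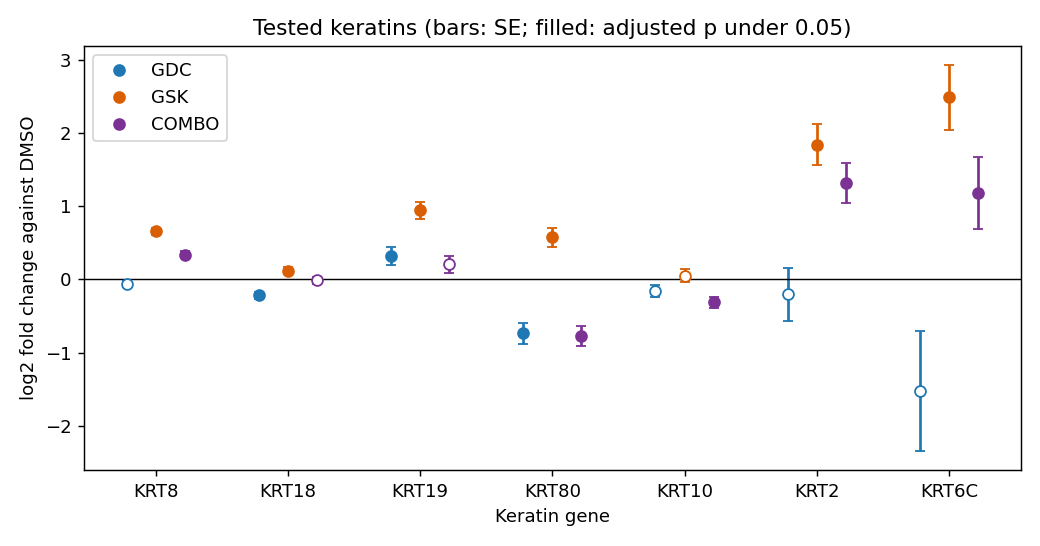
Log2 fold change against DMSO of the 7 tested keratins in GDC, GSK and COMBO, with SE bars, filled where the edgeR adjusted p was under 0.05. GSK points lie above the COMBO points for every gene, and KRT80 lies below 0 in GDC and COMBO and above 0 in GSK.

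With no filter on low counts, 36 keratins entered a fit of 19935 genes. In GSK 13 were higher and 0 lower, beside 56.5% of those genes changed (28.0% higher, 28.5% lower). In COMBO 9 were higher and 2 lower, beside 63.2% changed (33.5% higher, 29.7% lower), and in GDC 0 were higher and 3 lower, beside 29.8% (10.7% higher, 19.1% lower). COMBO against GDC had 9 higher and 0 lower, beside 57.0% (30.5% higher, 26.5% lower), and COMBO against GSK had 0 higher and 6 lower, beside 32.5% (16.1% higher, 16.4% lower). The interaction was called for 1 (KRT19, below 0), beside 14.8% (8.22% above 0, 6.62% below). The 8 untested keratins called in GSK were KRT1, KRT15, KRT16, KRT20, KRT32, KRT36, KRT6B and KRT75, and all were higher. KRT16, KRT32 and KRT6B were called on 4 pooled counts each. For each the observed level was 2.75 times the DMSO floor, or 1.1 times without DMSO C. For KRT16 no multiple can be given without GSK A, which held all its GSK counts.

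The partners of keratin filaments were counted by list, and the same shares apply: of all tested genes 40.0% were higher and 35.7% lower in GSK, and 43.3% and 39.2% in COMBO. Some named partners reached the filter of 0.705 CPM in no DMSO library, namely DSG4, COL17A1, BFSP1, CDSN, FOXN1 and NGFR, so they too were tested because of other arms and give no support to a count. Desmosomes anchor the filaments between cells, and of 14 tested genes 5 were higher and 7 lower in GSK, with the same numbers in COMBO. DSG4, a desmosomal cadherin of the hair shaft, rose by a log2 fold change of 4.58 in GSK and 4.12 in COMBO, whereas DSG1, the cadherin of upper epidermis, fell to 0.353 and 0.178 of its DMSO level. Hemidesmosomes tie the filaments to the basement membrane, and their genes were listed together with those of cytolinkers. Of 10 tested genes in this mixed list 8 were higher and 0 lower in GSK, with 7 and 0 in COMBO. COL17A1, a transmembrane collagen of hemidesmosomes, rose by 3.44 and 4.39 on the log2 scale and ITGB4, its integrin partner, by 2.14 and 2.46. The median over the 10 was 0.53 in GSK and 0.86 in COMBO.

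Of 8 tested genes for keratin turnover and organisation, 2 were higher and 3 lower in GSK, and 2 and 5 in COMBO. KLHL24, a ubiquitin ligase adaptor that acts on keratin 14, went from 20.8 ± 1.8 CPM under DMSO to 98.8 ± 7.9 under GDC, 115.9 ± 3.33 under GSK and 282.4 ± 18.9 under COMBO (SD, n = 3). CASP6, a caspase that cleaves KRT18, rose by 0.70 in GSK and 0.71 in COMBO on the log2 scale. Among 10 other intermediate filament genes 6 were higher and 3 lower in each arm with GSK126. LMNB1, a nuclear lamin, fell by 1.57 in GSK and 2.73 in COMBO on the log2 scale, and BFSP1, a lens filament protein, rose by 1.96 and 2.72.

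Of 8 listed hair follicle genes 5 were tested, and the 5 were higher in GSK and in COMBO. Among them were FOXN1, a factor that controls hair keratins (log2 1.76 and 2.04), and LEF1, a WNT-responsive factor of the hair matrix (1.11 and 1.74). TCHH, listed but untested, showed no such rise. Its mean was 0.31 CPM with GSK126 alone and 0.5 with both inhibitors, beside 0.44 with vehicle and 0.72 with GDC-0941. Its GSK libraries (0.11 to 0.51 CPM) overlapped its DMSO libraries (0.29 to 0.72 CPM). PADI3 and S100A3, also untested, had at most 3 pooled counts in an arm. Of 14 listed cornified envelope genes 3 were tested, of which 2 were higher and 0 lower in GSK and likewise in COMBO. On the log2 scale CDSN was at 1.83 and 2.97 and TGM3 at 1.73 and 0.85. Of 12 tested epithelial transcription factors, 6 were higher and 4 lower in GSK and 5 and 1 in COMBO. ELF3 (2.03 and 1.74) and KLF4 (1.20 and 1.56) were higher in both.

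The labelled cell type was checked by its markers. All 9 luminal markers had counts, and their summed level ran from 3535 to 3661 CPM under DMSO, 5403 to 5604 under GDC, 4591 to 4969 under GSK and 6284 to 6757 under COMBO. ACPP, prostatic acid phosphatase, was higher by 3.10 in GSK and 3.93 in COMBO on the log2 scale, and TMPRSS2, a luminal protease, by 1.57 and 2.23. Of the 9, 6 were higher and 2 lower in GSK and 8 and 1 in COMBO. HOXB13, a transcription factor of the prostate lineage, was lower in both (log2 -0.29, edgeR adjusted p = 1.89e-05, and -0.68, adjusted p = 5.82e-11). STEAP2, a metalloreductase of prostate epithelium, was lower in GSK (-0.23, adjusted p = 0.000615) and higher in COMBO (0.46, adjusted p = 1e-07). The 7 basal markers summed to 1.9 to 4.31 CPM under DMSO, 6.04 to 6.84 under GDC, 13.6 to 17.2 under GSK and 19 to 22.9 under COMBO, mostly ITGB4, while KRT5 and TP63 stayed at or near 0. NGFR, a further basal marker, was higher by 1.66 and 2.74, and all 3 tested basal markers were higher in both arms. The 8 neuroendocrine markers summed to 8.88 to 9.58 CPM in DMSO and 16.6 to 18.7 in COMBO, mostly ENO2 (means 6.7 and 13.75 CPM). On the log2 scale NCAM1 was higher by 1.39 and 1.81 and ENO2 by 0.81 and 1.04 in GSK and COMBO. Those were 2 of 3 tested, with 0 lower. The 8 mesenchymal markers summed to 308.1 to 335.2 CPM in DMSO and 2616 to 2967 in COMBO, mostly FN1 (means 279.7 and 2682 CPM). FN1 (log2 2.76 and 3.26) and VIM (0.90 and 1.40) were higher in GSK and COMBO. Of 4 tested mesenchymal markers 2 were higher and 1 lower in each arm with GSK126, and the lower was SNAI1, a repressor of epithelial genes (log2 -0.38, edgeR adjusted p = 0.0481, and -1.29, adjusted p = 8.36e-07). The part of other cell states in the keratin values was not tested, and in bulk RNA a change in the share of cells cannot be told apart from a change in RNA per cell.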

How the data were processed

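PolyA RNA-seq of 12 C4.2B libraries was analysed. Per the labels, STAR (hg38) was the aligner and reads were counted per gene with HTSeq; versions, annotation and strand setting are not given in the sources used here. The deposited counts are raw whole numbers of reads for each gene symbol. Their summary lines (23.7% to 33.7% of reads) were left out of library sizes. A second deposited table, counts divided by DESeq2 size factors by the authors, was not used. All columns of per-sample values (0 exceptions) belonged to a library.

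Counts were tested with edgeR 4.0.16 in R 4.3.3 (TMM, filterByExpr, glmQLFit, glmQLFTest), with 1 coefficient per arm and all libraries in 1 fit. DESeq2 1.42.0 was an alternative. Other alternatives replaced TMM by DESeq2 size factors or by library totals, dropped the filter or set it to a mean of 1 CPM or more, asked for a log2 fold change of 1 or more in size, fitted the compared arms alone, added a replicate block, or left out a library at a time. For keratins with few counts, pooled counts per arm were compared on TMM library sizes with exact binomial 95% intervals. Where the second arm had 0 counts, the floor of 3 counts over that arm took its place. Counting error in the first arm was then left out. Leaving out a library from these ratios was added after seeing the data.

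The members, their classes and the gene lists were chosen with earlier results of these data known. All keratins were accounted for, tested members by values and tests, untested members with at least 10 counts in an arm by pooled counts, and the rest by name; some of the rest were given with values because they are paralogs, partners or called without a filter, chosen after their values were seen. From each partner list the 2 tested members that differed most from DMSO under COMBO were named. HOXB13, STEAP2, SNAI1 and the untested TCHH, PADI3 and S100A3 were added after their values were seen. Promoters came from RefSeq and coordinates from GENCODE 44. Scripts were tested on simulated data with known changes. Within arms, libraries differed beyond sampling noise, so each was counted as 1 sample.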

Additional observations from a re-analysis of the deposited data

Results flagged for a closer look

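The interaction of the inhibitors, COMBO minus GDC minus GSK plus DMSO on the log2 scale, passed the edgeR test for 3 keratins. It was -0.26 for KRT8 (SE 0.0665, adjusted p = 0.00806), where the GSK126 change was 0.66 without GDC-0941 and 0.40 with it. It was -1.06 for KRT19 (SE 0.166, adjusted p = 0.000103), where those changes were 0.95 and -0.12. It was -0.61 for KRT80 (SE 0.204, adjusted p = 0.0375), where they were 0.58 and -0.04. The KRT8 call was lost in 8 of 18 alternatives, with no filter and without DMSO A, GDC A, GDC B, GDC C, GSK A, GSK B or COMBO A, with values of -0.15 to -0.28 over all 18. The KRT80 call was lost in 14 of 18, namely the 10 fits without a library other than GSK C or COMBO B, DESeq2 (adjusted p = 0.0791), DESeq2 size factors (0.0565), no filter (0.095) and a mean of at least 1 CPM (0.0605).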

How the results depend on the processing

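Of 777 log2 fold changes of tested keratins under alternatives, 697 kept their direction and side of the threshold, 71 no longer passed, 8 newly passed and 1 reversed: KRT18 in COMBO against DMSO, 0.19 with library totals. With no filter, of 36 keratins, 13 were called in GSK (beside 56.5% of all genes) and 11 in COMBO (63.2%) against DMSO. In COMBO against GDC 9 were called (57.0%), and 1 for the interaction (14.8%). When a log2 fold change of 1 or more in size was also asked for, they were 0 in GDC, 2 in GSK and 2 in COMBO against DMSO, 2 in COMBO against GDC, 2 in COMBO against GSK and 1 for the interaction. Leaving out each library in turn, which changes how many keratins pass the filter, gave 4 to 8 in COMBO against DMSO (8 without GDC A or COMBO C), 4 to 7 in COMBO against GDC (7 without DMSO A, GDC A or COMBO C) and 1 to 3 for the interaction (1 without GDC A, GDC B, GDC C, GSK A, GSK B or COMBO A). Same-letter pairs of libraries, 18 in all, had correlations of -0.0839 to 0.188, and the 2 over 0.1 were between GDC and COMBO. No different-letter pairs are set beside them here, so a pairing by letter is not excluded. With a replicate block, 2 keratins were called for GDC, 6 for GSK and 4 for COMBO against DMSO, 4 for COMBO against GDC, 6 for COMBO against GSK and 3 for the interaction, and KRT19 in GDC (0.32, adjusted p = 0.0512) and KRT6C in COMBO (1.05, adjusted p = 0.0653) no longer passed by edgeR. For the replicate block and the fits without a library, the share of all genes called is not given here. Whether those moves are particular to keratins was not tested. With library totals the median over all genes shifted by 0.154 (GSK), 0.207 (COMBO) and 0.173 (COMBO against GDC). Depth limits the 48 untested keratins, and the multiples of the DMSO floor fall when the deepest library, DMSO C, is left out.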

Other observations

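The KRTAP genes, which encode the proteins that cross-link keratins in the hair shaft, are not keratins but were counted in the same way. Over 88 genes their pooled counts were 16 under DMSO, 6 under GDC, 42 under GSK and 114 under COMBO. KRTAP5-1 supplied most of them, with 12, 4, 32 and 101. It was the only KRTAP gene tested, and it was higher in GSK (log2 2.39, SE 0.553, edgeR adjusted p = 0.000637) and in COMBO (log2 3.38, SE 0.437, adjusted p = 5.38e-07) than in DMSO. It reached the filter of 0.705 CPM in 0 DMSO and 0 GDC libraries and in all 6 with GSK126. Its level in COMBO was above that in GSK (1.99-fold, adjusted p = 0.0314). No other KRTAP gene had more than 5 pooled counts in an arm.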
